A study of Mus musculus with 6 samples.

Results

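The G1 cyclins, their catalytic partners and the activating phosphatase Cdc25a were examined in primary mouse hepatocytes before and after partial hepatectomy (PHx), an operation that takes out most of the liver. The genes were chosen by name in GENCODE M21, and all 9 (Ccnd1, Ccnd2, Ccnd3, Ccne1, Ccne2, Cdk2, Cdk4, Cdk6 and Cdc25a) were found among the 55450 genes listed in each count file. Bulk RNA-Seq libraries were available for 2 groups of 3 hepatocyte preparations each. The 0 h libraries came from undamaged liver of unoperated mice, not from sham-operated animals, and the 48 h libraries came from liver collected 48 h after PHx. Both groups were C57BL/6 mice of 10 to 12 weeks by their labels, fed a normal diet, and both were prepared by 2-step collagenase digestion. The study describes its mice as male C57BL/6J and gives a somewhat younger age than the labels. The 3 libraries of a time point are separate preparations, and the comparison asks which parts of the G1 machinery differ in RNA level at a time when hepatocytes are known to divide.

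A cell that leaves quiescence first builds D-type cyclins (Ccnd1, Ccnd2, Ccnd3), which bind Cdk4 or Cdk6 and begin the phosphorylation of the retinoblastoma protein. This releases E2F transcription factors, whose targets include the E-type cyclins (Ccne1, Ccne2), and the complexes of these with Cdk2 carry the cell into S phase. Cdc25a removes inhibitory phosphates from Cdk2, while inhibitors of the INK4 and CIP/KIP families hold the kinases back. Hepatocytes of an adult liver are mostly quiescent, and cyclin D1 is known as the D-type cyclin that their entry into the cycle depends on.

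Because most of these genes moved together, the stretch before the transcription start was read from a RefSeq table of promoters (GRCm38.p6, 250 bases before to 50 after each start), which holds 7 promoters of 6 of the 9 genes. Ccnd1, Ccnd2 and Ccne2 are not in that table. Short motifs of several kinds were searched on both strands: words of the E2F site (TTTCCCGC, TTTGGCGC, TTTCGCGC or TTTGCCGC), the E-box CACGTG, the CCAAT box and the GC box GGGCGG. Capitals mark these words on either strand, and bases that the annotation places in an exon were left off the end. Cdc25a and Cdk2 are shown because theirs are the promoters with an E2F word, Cdk4 for its E-boxes, and Ccne1 because its RNA changed most.
Cdc25a, chr9:109875329-109875578 (+ strand): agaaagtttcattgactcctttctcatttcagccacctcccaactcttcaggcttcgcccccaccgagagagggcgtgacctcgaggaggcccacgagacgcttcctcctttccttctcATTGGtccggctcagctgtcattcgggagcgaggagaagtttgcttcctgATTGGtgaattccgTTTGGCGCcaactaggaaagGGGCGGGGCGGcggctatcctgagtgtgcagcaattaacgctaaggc
Cdk2, chr10:128705052-128705301 (− strand): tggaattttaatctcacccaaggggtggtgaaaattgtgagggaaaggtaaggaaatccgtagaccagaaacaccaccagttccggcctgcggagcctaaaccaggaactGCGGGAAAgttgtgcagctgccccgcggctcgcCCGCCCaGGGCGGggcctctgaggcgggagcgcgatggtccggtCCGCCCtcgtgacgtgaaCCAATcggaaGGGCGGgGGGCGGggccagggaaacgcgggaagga
Cdk4, chr10:127063285-127063533 (+ strand): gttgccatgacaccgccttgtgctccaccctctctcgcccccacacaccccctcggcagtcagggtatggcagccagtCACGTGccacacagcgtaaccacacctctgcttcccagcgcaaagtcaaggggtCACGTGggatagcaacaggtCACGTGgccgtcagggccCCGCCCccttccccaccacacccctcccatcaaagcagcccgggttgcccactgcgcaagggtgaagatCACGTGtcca
Ccne1, chr7:38107535-38107740 (− strand): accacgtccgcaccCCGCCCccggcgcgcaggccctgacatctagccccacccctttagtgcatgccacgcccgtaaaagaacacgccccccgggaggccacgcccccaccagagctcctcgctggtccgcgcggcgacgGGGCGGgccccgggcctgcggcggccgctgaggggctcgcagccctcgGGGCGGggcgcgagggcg

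The Cdc25a promoter holds TTTGGCGC 67 bases before the start, with a pair of CCAAT boxes and a pair of GC boxes that share 1 base. In the Cdk2 promoter an E2F word lies on the opposite strand, as GCGGGAAA, 140 bases before the start. Of the 7 promoters, 2 hold an E2F word, against 2.26% of all 32851 promoters in the table. The Cdk4 promoter has 4 copies of CACGTG, which begin 172, 118, 98 and 11 bases before the start, and only 8 promoters of the whole table hold 4 or more. Cdk6 has 1 copy, and 7.15% of all promoters have at least 1. GC boxes are common, in 35.7% of all promoters and in 6 of the 7, and the Ccne1 window holds 4 of them (1 runs into the exon and is not printed in full) and none of the E2F words. CCAAT boxes were found in 3 of the 7 and in 37.4% of all. The AP-1 words TGACTCA and TGAGTCA were found in 0 of the 7, against 5.20% of all. A match is a description of letters, and binding was not measured in these libraries.

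Each library held between 31419443 and 36346220 counts on genes, so that a floor of 3 counts lies at 0.0825 to 0.0955 CPM, the count of a gene scaled to a fixed library total. Reads carry no molecular identifiers, and these floors cover counting error only. Levels are given as CPM scaled by TMM factors, edgeR's correction for library composition, which were 0.914 to 0.950 at 0 h and 1.02 to 1.11 at 48 h. The label was checked against markers. A set of 16 hepatocyte genes summed to 128341 to 149293 CPM at 0 h and 91120 to 117644 CPM at 48 h, with 5 lower and 2 higher. Other cell types were measured at far lower levels. Of 12 endothelial markers 11 were lower and 0 higher at 48 h, and their sum was 359 to 517 CPM at 0 h and 254 to 280 CPM at 48 h. Of 10 Kupffer cell markers 2 were higher and 0 lower, and the sums overlapped (78.3 to 118 CPM and 112 to 137 CPM). For these marker counts, the shares of all genes tested were 21.4% higher and 19.3% lower. Stellate cell markers (74.0 to 119.8 CPM and 65.7 to 79.0 CPM) and bile duct markers (39.4 to 51.5 CPM and 31.0 to 40.0 CPM) overlapped in their sums as well. Single markers of both lists moved in opposite directions. Of 8 stellate cell markers 1 was higher (Col1a1, log2 fold change 2.30) and 1 lower (Reln, -0.82). Of 7 bile duct markers 3 were tested, with 1 higher (Spp1, 1.51) and 1 lower (Pkhd1, -1.05). Krt7, Epcam and Cftr had 3 counts or fewer in every library, and Krt19 at most 4. Lymphocyte and neutrophil markers summed to at most 0.559 and 1.20 CPM, with Retnlg and Mpo at 0. The erythroid list summed to 55.9 to 86.6 CPM at 0 h and 18.7 to 40.4 CPM at 48 h, nearly all of it Alas2, and Hbb-bt was at 0. In bulk samples, fewer cells of a type and less RNA per cell cannot be told apart.

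At 48 h after PHx, 7 of the 9 genes were higher than in undamaged liver and 0 were lower, while Ccnd2 and Cdk6 did not pass the test (edgeR's quasi-likelihood test, Benjamini-Hochberg adjusted p under 0.05). Over all 17037 genes tested, 21.4% were higher and 19.3% lower, 40.7% in all. Both E-type cyclins rose, as did Ccnd1, Ccnd3, Cdk2, Cdk4 and Cdc25a, and the increases ran from 1.59-fold for Ccnd3 to 41.1-fold for Ccne1. The median log2 fold change of the 9 genes was 1.21, and that of all genes tested was -0.0033. In 8 of the 9 genes all libraries of one time point lay above all of the other in CPM, against 52.7% of all genes tested. Each of the 9 genes had at least 10 counts in all 6 libraries, so none entered the test through its 48 h level alone. Without TMM factors, with libraries scaled by their totals only, the median of the genes tested moved up by 0.20 on the log2 scale, higher genes made up 71.6% of all calls in place of 52.5%, and Cdk6 passed as well.

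**Figure D1:**
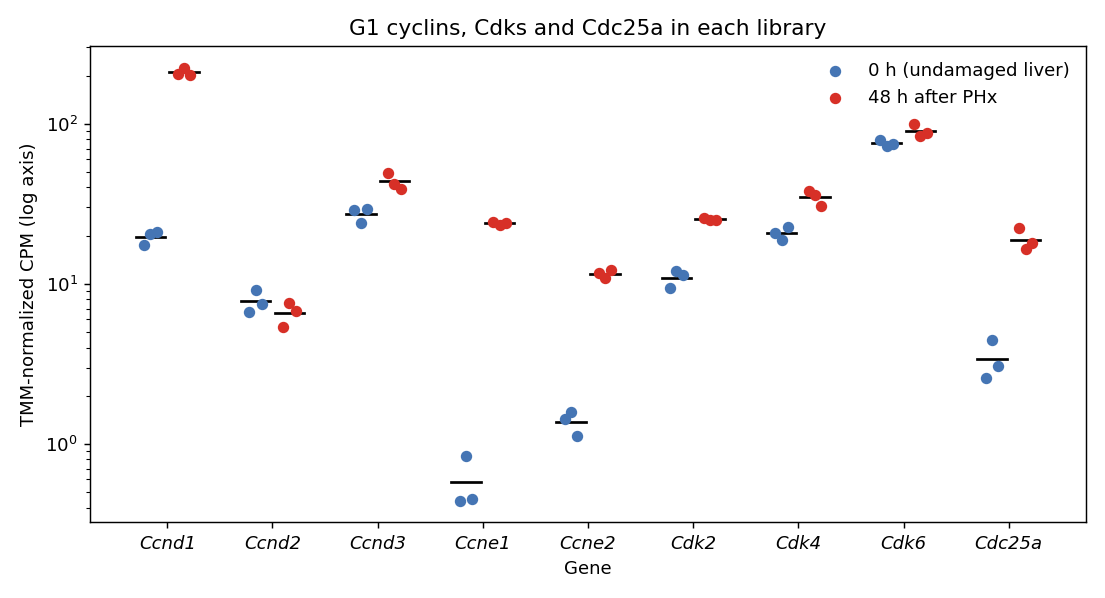
TMM-normalized CPM (log axis) of the 9 genes in each of the 6 libraries, with points for libraries and black bars for the group means. The 48 h points lie above all 0 h points in every gene but Ccnd2, whose groups overlap, and the widest gap is that of Ccne1 (0.577 CPM on average at 0 h and 23.9 CPM at 48 h).

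**Figure D2:**
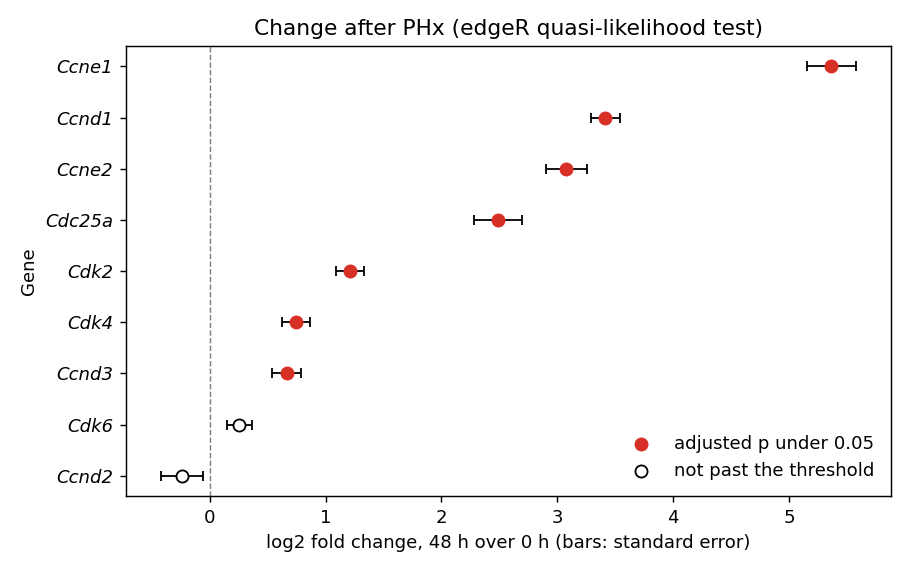
Log2 fold change at 48 h over 0 h for each gene, with bars for the standard error and filled points for an adjusted p under 0.05. Ccne1, Ccnd1, Ccne2 and Cdc25a lie above 2, Cdk2, Cdk4 and Ccnd3 between 0.67 and 1.21, and Cdk6 and Ccnd2 are the open points on either side of 0.

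Among the D-type cyclins the largest change was that of Ccnd1 (ENSMUSG00000070348.5, chr7:144929931-144939925, − strand), the cyclin best known for driving hepatocytes out of quiescence. Its level was 17.4, 20.5 and 21.1 CPM in the 3 libraries of undamaged liver and 204, 224 and 201 CPM in those of regenerating liver. Every 48 h library stood far above every 0 h library, and the means were 19.7 ± 1.97 and 209.9 ± 12.7 CPM (SD, n = 3). This is a log2 fold change of 3.41 (SE 0.127), or 10.7-fold (edgeR adjusted p = 4.11e-08), and 1.99% of the genes tested had a larger one. In raw counts it had 512 to 700 reads per library at 0 h and 6861 to 8025 at 48 h.

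Ccnd3 (ENSMUSG00000034165.16, chr17:47505051-47599691, + strand), the D-type cyclin found in many differentiated tissues, rose less. It measured 29.1, 24.0 and 29.5 CPM at 0 h and 49.4, 42.3 and 39.2 CPM at 48 h, again without overlap. Its log2 fold change was 0.67 (SE 0.125, 1.59-fold, edgeR adjusted p = 0.00184). A processed copy, Ccnd3-ps on chromosome 4, had 0 or 1 counts at 0 h and 2 to 6 at 48 h, against 744 to 1663 counts on Ccnd3 itself.

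Ccnd2 (ENSMUSG00000000184.12, chr6:127125162-127152193, − strand), the third D-type cyclin, was the member whose groups overlapped. Its levels were 6.67, 9.22 and 7.50 CPM at 0 h and 5.34, 7.64 and 6.80 CPM at 48 h, so that each group held libraries within the range of the other. The log2 fold change was -0.24 (SE 0.182) and did not pass the test (edgeR adjusted p = 0.319), with adjusted p between 0.199 and 0.903 over the alternatives tried. Beside these levels, the summed endothelial markers were 359 to 517 CPM at 0 h and 254 to 280 CPM at 48 h. The largest term of these sums was Dpp4, at 122 to 154 CPM at 0 h and 81.3 to 97.7 CPM at 48 h. The part of endothelial cells in the Ccnd2 reads was not tested.

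Of the E-type cyclins, Ccne1 had the largest fold change of the 9 genes. Ccne1 (ENSMUSG00000002068.16, chr7:38097984-38107534, − strand), a regulatory subunit of Cdk2, was measured at a low level in undamaged liver, at 0.443, 0.838 and 0.452 CPM, or 13, 26 and 15 reads. At 48 h it reached 24.3, 23.3 and 24.0 CPM, or 820, 833 and 842 reads, and the 3 libraries had an SD of 0.541 CPM. The log2 fold change of 5.36 (SE 0.211, 41.1-fold, edgeR adjusted p = 5.40e-08) was exceeded by 0.698% of the genes tested. The size of this fold rests on the few reads at 0 h, where the highest library held 26 reads and the lowest 13.

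Ccne2 (ENSMUSG00000028212.16, chr4:11191351-11204779, + strand), its paralog with the same partner, measured 1.43, 1.58 and 1.11 CPM at 0 h and 11.6, 10.9 and 12.3 CPM at 48 h. All 48 h libraries lay above all 0 h libraries, with a log2 fold change of 3.08 (SE 0.177, 8.43-fold, edgeR adjusted p = 5.77e-07). In raw counts it had 37 to 49 reads per library at 0 h and 390 to 429 at 48 h.

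Of the kinases, Cdk2 (ENSMUSG00000025358.16, chr10:128697939-128705031, − strand), the partner of the E-type cyclins, had the largest fold change. It measured 9.46, 12.0 and 11.3 CPM at 0 h and 25.7, 25.2 and 25.0 CPM at 48 h. The 48 h libraries were nearly level with each other (SD 0.349 CPM) and all above the 0 h libraries, with a log2 fold change of 1.21 (SE 0.121, 2.31-fold, edgeR adjusted p = 3.15e-05).

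Cdk4 (ENSMUSG00000006728.12, chr10:127063534-127067920, + strand), which binds the D-type cyclins, measured 20.8, 18.9 and 22.6 CPM at 0 h and 37.9, 36.1 and 30.4 CPM at 48 h. The groups did not overlap, and the log2 fold change was 0.75 (SE 0.121, 1.68-fold, edgeR adjusted p = 0.000724).

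Cdk6 (ENSMUSG00000040274.11, chr5:3341485-3531008, + strand), the other partner of the D-type cyclins, was already at 79.8, 73.1 and 75.0 CPM at 0 h. At 48 h its libraries stood at 99.8, 84.4 and 88.2 CPM, all above those of 0 h, but by less than the test required (log2 fold change 0.26, SE 0.107, 1.20-fold, edgeR adjusted p = 0.0787). Scaled by library totals alone it passed, at a log2 fold change of 0.46 (edgeR adjusted p = 0.00484), of which 0.20 is the shift of the median gene under that scaling.

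Cdc25a (ENSMUSG00000032477.14, chr9:109875579-109893895, + strand), the phosphatase that activates Cdk2, was at 2.59, 4.45 and 3.07 CPM at 0 h and at 22.2, 16.4 and 18.0 CPM at 48 h. The 48 h libraries were all above those of undamaged liver. It rose 5.60-fold (log2 fold change 2.49, SE 0.206, edgeR adjusted p = 8.37e-06). Its biological coefficient of variation in the fitted model, an estimate that borrows from all genes, was the largest of the 9 at 16.9%. That of Cdk6 was the lowest, at 10.9%.

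To compare genes with each other, CPM was divided by the length of each gene's merged exons in kilobases. On this scale the D-type cyclins summed to 7.72, 8.07 and 8.63 CPM per kilobase at 0 h and 49.5, 53.3 and 48.0 at 48 h, a 6.17-fold difference. Ccnd1 made up 47.9%, 54.0% and 51.9% of that sum at 0 h and 87.5%, 89.4% and 89.2% at 48 h, so its mean share was 51.3% ± 3.09 and 88.7% ± 1.06 (SD, n = 3). No 0 h share reached a 48 h share (exact permutation test, two-sided, p = 0.1, which is the lowest value that groups of 3 allow).

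The E-type pair changed in make-up too. Their sum per kilobase was 0.575, 0.767 and 0.489 CPM at 0 h and 12.5, 11.9 and 12.5 CPM at 48 h, a 20.1-fold difference. Ccne1 contributed 28.9%, 41.1% and 34.7% at 0 h and 73.4%, 73.7% and 72.0% at 48 h (34.9% ± 6.08 and 73.0% ± 0.880, SD, n = 3, two-sided exact permutation test, p = 0.1). Ccne2 was thus the larger of the pair in each 0 h library and the smaller in each 48 h library.

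Among the kinases of the D-type cyclins the shift was smaller. The share of Cdk4 in the sum of Cdk4 and Cdk6 was 52.9%, 52.6% and 56.4% at 0 h and 62.1%, 64.8% and 59.8% at 48 h, a difference of 8.24 percentage points without overlap (two-sided exact permutation test, p = 0.1). Cdk2, Cdk4 and Cdk6 together went from 13.6 ± 0.587 to 21.3 ± 1.62 CPM per kilobase (SD, n = 3), or 1.57-fold. Within a library, the log2 ratio of summed D-type cyclins to Cdk4 plus Cdk6, which does not depend on the scaling of libraries, was -0.65, -0.45 and -0.51 at 0 h and 1.40, 1.64 and 1.61 at 48 h. Cyclin RNA was thus below kinase RNA in all 3 libraries of undamaged liver and above it in all 3 after PHx on this scale (exact permutation test, two-sided, p = 0.1).

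These shares depend on the length assumed, since merged exons hold the bases of every annotated variant. With the length of the annotated principal transcripts (3740 bases in place of 4709 for Ccnd1, but 2060 in place of 8775 for Ccnd3), the share of Ccnd1 was 26.6% ± 3.02 at 0 h and 71.6% ± 2.55 at 48 h (SD, n = 3). Ccnd3 then led the D-type cyclins at 0 h, and the D-type sum was 3.95-fold higher at 48 h rather than 6.17-fold. The shares of Ccne1 were 37.6% and 75.3%. Those of Cdk4 were 48.2% and 56.6%, so that at 0 h it was the smaller of the pair in 2 of 3 libraries (47.1%, 46.8% and 50.6%). The ratio of D-type cyclins to Cdk4 and Cdk6 was -0.08 at 0 h and 1.39 at 48 h on the log2 scale. Each of these differences had the same direction on both scales. This second length was added after the first results had been seen.

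**Figure D3:**
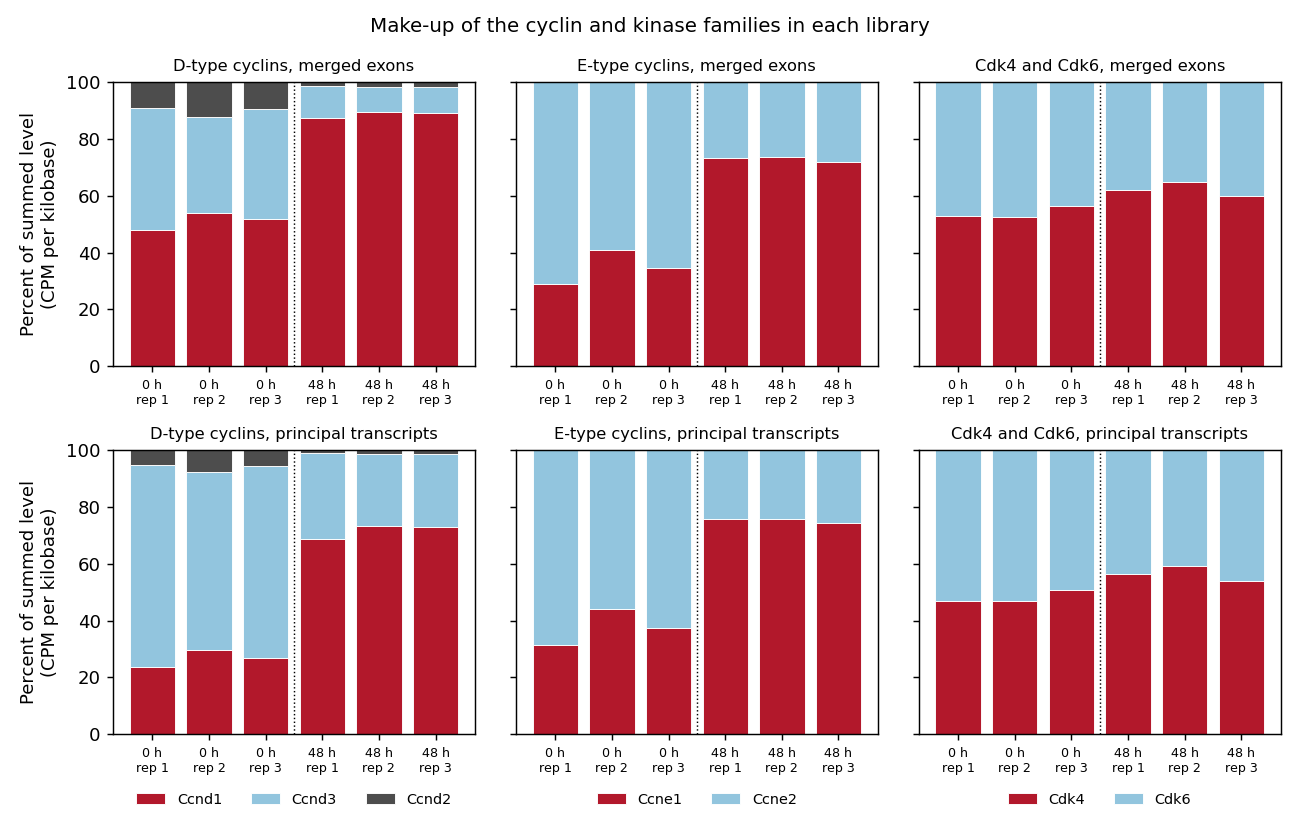
Share of each gene in the summed level of its family (percent of CPM per kilobase, vertical axis) in each library, per kilobase of merged exons in the upper row and of principal transcripts in the lower row. The red part (Ccnd1, Ccne1, Cdk4) is larger in every 48 h library than in any 0 h library in all 6 panels, and the grey part, Ccnd2, is the smallest of the D-type cyclins throughout.

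The order of the 9 levels per kilobase of merged exons changed between the time points. At 0 h Cdk4 (6.38 CPM per kilobase) and Cdk6 (5.43) led, followed by Ccnd1 (4.18), Ccnd3 (3.13), Cdk2 (1.76), Ccnd2 (0.829), Cdc25a (0.420), Ccne2 (0.393) and Ccne1 (0.217), with an overlap between neighbours for Cdc25a and Ccne2 only. At 48 h Ccnd1 (44.6) led, ahead of Cdk4 (10.7), Ccne1 (8.98), Cdk6 (6.49), Ccnd3 (4.97), Cdk2 (4.07), Ccne2 (3.32), Cdc25a (2.36) and Ccnd2 (0.701), with no overlap between neighbours. Ccne1 moved from the last place to the third. With principal transcripts the 0 h order began with Ccnd3 (13.4), Cdk6 (10.9) and Cdk4 (10.1), of which the last 2 overlapped. At 48 h it began with Ccnd1 (56.1), Ccnd3 (21.2) and Cdk4 (17.0), and Ccne1 (11.9) overlapped with Cdk6 (13.0). Ccnd1 at the top and Ccnd2 at the bottom of the 48 h order were shared by both scales.

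Genes that act on these complexes were read from lists set with earlier results known. The Cdk inhibitors bind and restrain the same kinases. Of the 7 genes of the INK4 and CIP/KIP families 4 were higher and 0 lower, and Cdkn1c, Cdkn2a and Cdkn2b had too few counts to be tested. Cdkn2c, the INK4 protein p18, went from 1.64 to 24.6 CPM on average (log2 fold change 3.91, SE 0.238, edgeR adjusted p = 8.26e-07). Cdkn1a, which encodes p21, went from 7.52 to 81.2 CPM (3.43, SE 0.157, adjusted p = 1.19e-07). Cdkn2d, or p19, went from 0.812 to 4.46 CPM (2.44, SE 0.277, adjusted p = 7.51e-05). The median of the 4 tested was 2.94.

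Of 13 genes of the RB family, the E2F factors and their DP partners, 11 were higher and 1 lower, with a median log2 fold change of 0.98. E2f2, an activating E2F, had a log2 fold change of 3.67 (SE 0.207, from 2.09 to 26.6 CPM), and E2f7, a repressing one, of 3.57 (SE 0.272, from 0.759 to 8.97 CPM). Of the pocket proteins Rbl1, or p107, rose by 3.39 (SE 0.177, from 2.26 to 23.6 CPM), and Rbl2, or p130, the pocket protein typical of quiescent cells, fell by 0.63 on the log2 scale (SE 0.11, from 32.5 to 20.9 CPM, edgeR adjusted p = 0.00113). Opposite-strand genes overlap 20.97% of the exon bases of Rbl2.

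Of 9 genes that switch Cdks on or off by phosphorylation or bind them as Cks proteins, 6 were higher and 0 lower. The median was 2.06 over all 9, and 1.25 over the 7 with at least 10 counts in all 6 libraries, which leaves out Cdc25b and Cdc25c (Cdc25b is named after its values were seen). Pkmyt1 (4.84, SE 0.157, from 0.841 to 24.2 CPM) and Wee1 (3.76, SE 0.175, from 3.16 to 42.7 CPM), both of which add inhibitory phosphates, were among the largest increases. Cdc25c, a phosphatase of the entry into mitosis, had 0, 3 and 1 reads at 0 h, which is at or under the floor, and 219, 237 and 147 reads at 48 h. It passed the test, but entered it through the 48 h libraries alone, and its fold is not given. The 3 genes that did not pass, named after their values were seen, are the subunits of the Cdk-activating kinase, Cdk7 (-0.09), Ccnh (-0.12) and Mnat1 (-0.11).

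Origin licensing and firing, the step that G1/S kinases and E2F act on, showed 20 higher and 1 lower of 24 genes. The median was 3.33, or 2.74 over the 18 with at least 10 counts in all 6 libraries. The higher calls include 6 genes with a 0 h library under 10 counts, which needed 48 h libraries to meet the filter. Mcm5, a helicase subunit, had a log2 fold change of 5.40 (SE 0.151, from 1.98 to 83.7 CPM). Cdc6, which loads the replicative helicase, had 7, 8 and 11 reads at 0 h and 996, 875 and 812 at 48 h. Ticrr, needed for origin firing, had 7, 8 and 2 reads at 0 h and 471, 502 and 396 at 48 h. Both passed the test but met the filter through the 48 h libraries, so their folds are not given. Mcm10 was the lower gene (-0.77, SE 0.230, from 80.7 to 47.5 CPM, edgeR adjusted p = 0.0222), and this call was lost without 0 h replicate 1 (adjusted p = 0.0924), without 48 h replicate 1 (0.0609) and without 48 h replicate 2 (0.0750), and also with libraries scaled by their totals (0.0809).

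The cyclins and the kinase of later phases rose as well, in 5 of 7 genes, with 2 not tested. Of these 5, 3 had at least 10 counts in all 6 libraries, and no median is given. Cdk1, the mitotic kinase, had a log2 fold change of 5.57. Ccnb1, its main cyclin, had 6, 17 and 18 reads at 0 h and 1178, 1117 and 625 at 48 h. Ccnb2 had 19, 24 and 9 reads at 0 h and 936, 1105 and 733 at 48 h. Both cyclins passed the test but met the filter through the 48 h libraries, so their folds are not given. Of the 34 transcriptional and atypical cyclins and Cdks, 33 were tested, and 5 were higher and 3 lower, with a median of 0.03. These are 15.2% and 9.09% of the 33, against 21.4% and 19.3% of all genes tested. This split was not stable. It was 3 higher and 4 lower with DESeq2's test, with its size factors or with no filter, 3 and 5 with upper quartile scaling, and 10 and 3 with libraries scaled by their totals. Higher genes numbered 3 without 0 h replicate 1, 4 without 0 h replicate 2, 2 without 0 h replicate 3, 3 without 48 h replicate 1, 2 without 48 h replicate 2 and 3 without 48 h replicate 3. Ccno (1.30), Ccng1 (1.21), which is known as a p53 target, and Ccnyl1 (0.96) were the largest increases, and Cables1 (-1.40), Ccnl1 (-0.65) and Ccnl2 (-0.62), the last 2 with roles in splicing, were the decreases. Opposite-strand genes overlap 34.2% of the exon bases of Cables1, and neither it nor Ccno was tested under a filter of 1 CPM. Without 0 h replicate 3 or without 48 h replicate 2 Ccno no longer passed (edgeR adjusted p = 0.0534 and 0.0546). Of all genes tested, 21.4% were called higher. The calls in origin licensing, in the genes that switch Cdks and in the later cyclins include 6, 2 and 2 genes with a 0 h library under 10 counts. Such genes were tested only because of their 48 h counts, so the shares called in these 3 lists are not compared with that of all genes.

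Genes that act on the stability of cyclins or p27, ubiquitin ligase parts and deubiquitinases among them, gave 3 higher and 2 lower of 14 (median 0.14). These are 21.4% and 14.3%, against 21.4% and 19.3% of all genes tested, and scaling by library totals gave 7 higher and 1 lower. Usp2, a deubiquitinase known to stabilise cyclin D1, had a log2 fold change of 3.51 (SE 0.217, from 5.99 to 68.5 CPM). Skp2, which targets p27, had 1.98 (SE 0.131, from 4.58 to 18.1 CPM), and Ddb1 0.50. Fbxo31, an F-box protein that acts on cyclin D1, fell by 0.78 on the log2 scale (SE 0.11, from 38.3 to 22.3 CPM, edgeR adjusted p = 0.000316). Cul4a (-0.33) passed as well, but not without 0 h replicate 1 (0.0699), 48 h replicate 1 (0.0518) or 48 h replicate 2 (0.0544), with the replicate block (0.0555) or with libraries scaled by their totals (log2 fold change -0.13, 0.358, all edgeR adjusted p). Mitogen receptors and the transcription factors known to act on cyclin D genes gave 5 higher and 5 lower of 25, with 1 not tested (median 0.10). Of the genes tested that is 20.8% in each direction, close to the shares of all genes. Scaling by library totals gave 9 higher and 3 lower, and upper quartile scaling 4 and 7. Fosl2 (0.99), Stat3 (0.82) and Fos (0.64) were higher, while Stat5b (-1.02), Junb (-0.88) and Insr, the insulin receptor (-0.67), were lower.

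**Figure D4:**
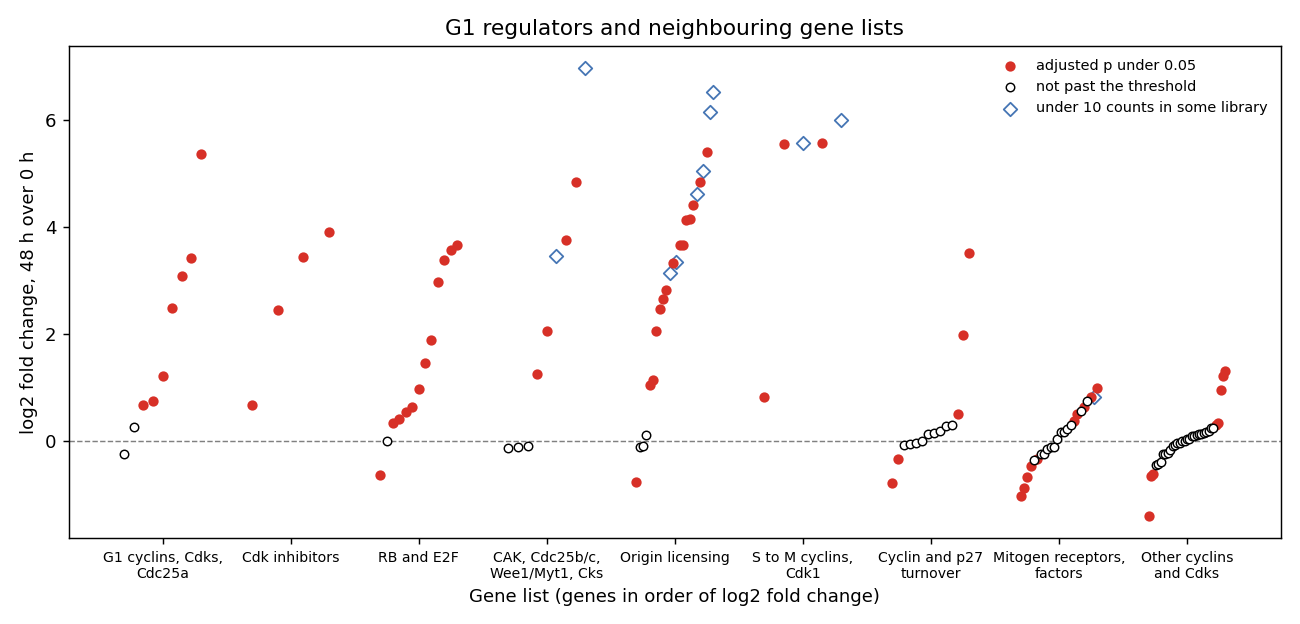
Log2 fold change at 48 h over 0 h of each tested gene of the 9 lists, with filled points for an adjusted p under 0.05 and open circles for genes that did not pass. Diamonds are genes with under 10 counts in some library, 6 of them in origin licensing, whose fitted height is not a measured fold, and most genes of the turnover, mitogen and other cyclin lists lie near 0.

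Several members share exon bases with a gene on the opposite strand, and whether strand was used in counting is not given in the sources used here, so reads of such pairs could have been lost or exchanged. Of the exon bases of Ccnd1, 23.4% lie opposite LTO1, which had 169 to 218 counts at 0 h and 221 to 253 at 48 h against 512 to 8025 on Ccnd1. Tspan31 covers 19.7% of Cdk4 and had 2952 to 3650 and 3938 to 4359 counts, against 585 to 1291 on Cdk4 itself. Ints8 covers 17.4% of Ccne2, with 672 to 767 counts at 0 h and 664 to 762 at 48 h. Bysl covers 4.11% of Ccnd3 (450 to 549 and 898 to 918 counts). The other overlaps cover under 5% of a member, by Gm17590 in Cdk6 (39 to 96 and 78 to 93 counts), Pmel in Cdk2 (11 to 17 and 17 to 20) and 2 antisense genes in Ccnd2 with 0 counts, and no exon of Ccne1 or Cdc25a is overlapped. The part of these neighbours in the members' counts was not tested.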

How the data were processed

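Bulk RNA-Seq of mouse hepatocytes gave 6 libraries, 3 at 0 h and 3 at 48 h after PHx, grouped by their labels. The authors deposited raw read counts per gene, without normalization. Their notes name FastQC 0.11.5, Trim Galore 0.6.4, STAR 2.6, HTSeq 0.12.4, DESeq2 and build mm10. The counting mode and strand setting are not given in the sources used here. All 55450 gene identifiers match GENCODE M21, from which names, exons and lengths were taken. Reads on no gene (24.3% to 32.7%) and ambiguous reads (4.27% to 5.29%) were left out, and the files list 0 reads as unaligned, not unique or of low quality.

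Time points were compared in edgeR 4.0.16 (R 4.3.3) with TMM factors and the quasi-likelihood test over 17037 genes (3 or more libraries with 10 or more counts), with Benjamini-Hochberg adjustment over all of them and a threshold of 0.05. The standard error is the size of the log2 fold change over the square root of F. Shares and ratios were compared over libraries with two-sided exact permutation tests. The test was tried on simulated counts first. P-values set the difference between time points against the spread between these preparations, which edgeR estimates with help from all genes. Same-numbered libraries come from different mice, so no block was used.

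Alternatives were DESeq2 1.42.0, voom in limma 3.58.1, other scalings and filters, the replicate number as a block, other lengths, and leaving out each library over the same genes. The principal transcript lengths and the motif words were chosen after seeing the data. The members and gene lists were chosen with earlier results of these data known. Beside the members, up to 3 genes with the largest positive and up to 3 with the largest negative log2 fold change were named among the genes called in each list, with the 5 genes most alike in pattern to Ccnd1 and to Ccne1 and the genes overlapping a member. Markers of hepatocytes and other cell types are textbook genes.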

Additional observations from a re-analysis of the deposited data

How the results depend on the processing

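Over 9 other settings of scaling, filter, test or block and the libraries left out in turn, all 9 genes kept their direction, and the 7 higher genes kept their call, with an adjusted p of at most 0.00787 (Ccnd3). In all, 344 alternative values stayed on the same side, 32 moved, 1 passed the threshold and 0 reversed. Among the 9 genes only Cdk6 changed its call, at a log2 fold change of 0.46 with libraries scaled by their totals, where members higher became 8. That scaling also gave 2110 genes lower, and 8 calls in the turnover list, 20 in licensing, 12 in the mitogen list and 13 among other cyclins, and a log2 difference of 2.83 for summed D-type cyclins and 0.85 for the 3 kinases. Calls among the other cyclins and Cdks numbered 7 with DESeq2's size factors, 7 with no filter, 7 with DESeq2's test and 8 with upper quartile scaling, and a filter of 1 CPM gave 7 in the turnover list. With no division by length, Ccnd1's share of D-type cyclins differed by 44.9 percentage points, the D-type sum by 2.24 and the kinase sum by 0.49 on the log2 scale, and the ratio of D-type cyclins to Cdk4 and Cdk6 by 1.87. With principal transcripts the share differed by 45.1 points, the D-type sum by 1.98, the kinase sum by 0.67 and the ratio by 1.47. These follow from the construction of each scale, and the cause of the other changes was not tested. With the replicate number as a block, 7 members were higher, and calls numbered 4 in the turnover list and 6 among other cyclins. The numbers share no animal, the correlations of same-numbered deviations were 0.03, -0.07 and -0.14, and 2 of 6 libraries correlated best with their own number. The block changed no call of a member. Leaving out 1 library gave 2874 to 3451 genes higher and 2638 to 3223 lower, 4 to 5 calls in turnover, 20 to 21 in licensing, 8 to 11 in mitogen and 5 to 8 in other cyclins, and log2 fold changes of 3.33 to 3.47 for Ccnd1, 5.21 to 5.73 for Ccne1 and -0.38 to -0.10 for Ccnd2. With 3 libraries a group and 13 to 26 reads of Ccne1 at 0 h, its level there is limited by depth.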

Other observations

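Among 7557 genes whose mean reached 10 CPM, those whose log2 CPM ran most nearly in parallel with Ccnd1 over the 6 libraries were Pkmyt1 (Pearson's r 0.9998, log2 fold change 4.84), Slfn9 (5.12), Kntc1 (5.98), Pola1, the catalytic subunit of DNA polymerase alpha (2.64), and Rrm2, a subunit of ribonucleotide reductase (5.29). For Ccne1 they were Brip1, a DNA helicase of repair (r 0.9994, log2 fold change 2.64), Rbbp8 (2.09), Tcf7 (1.98), Baz1b (1.02) and Ezh2, the catalytic subunit of Polycomb repressive complex 2 (2.49). Their folds ranged widely, since r follows the shape and not the size of a difference. With 3 libraries at each of 2 time points such an r mostly reflects the difference between the groups, and 196 genes reached 0.99 with Ccnd1 and 161 with Ccne1. The values are descriptions, and the points share their library and its scaling.

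In the promoter table, the E2F words were found in 9 of 24 promoters of the origin licensing genes and in 6 of 14 of the RB and E2F genes, against 2.26% of all promoters. They were found in 2 of 7 of the G1 cyclins and kinases, 1 of 9 of the Cdk inhibitors, 0 of 5 of the genes that switch Cdks by phosphorylation, 1 of 6 of the later cyclins and Cdk1, 1 of 18 of the turnover genes, 2 of 25 of the mitogen list and 0 of 28 of the other cyclins and Cdks. Between Ccnd1 and the kinases it binds, the biological coefficient of variation in the fitted model was alike, at 11.7% for Ccnd1, 11.6% for Cdk4 and 10.9% for Cdk6. This was not particular to them, since Ccnd3 (11.9%) and Cdk2 (11.3%) had similar values, while that of Ccnd2 was 16.1%.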
